A study of Mus musculus with 12 samples.

Results

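Trigeminal ganglia of mice that received electrical stimulation after a corneal wound were compared with ganglia of mice that had the wound alone. The libraries were chosen by their titles, 3 from stimulated injured mice and 3 from injured mice, which is 6 of the 12 libraries in the study. All mice were female C57BL/6J aged 8 weeks. Stimulated injured mice had a keratectomy 1.5 mm wide, which removed the epithelium and upper stroma in the centre of 1 cornea, and a biphasic current of 300 µA at 20 Hz through the skin of the orbit for 4 min a day over 14 days. Injured mice had the same keratectomy, and ganglia were taken 2 weeks after it. The remaining libraries came from uninjured mice given the current (3) and from untreated controls (3). Both injured groups received ketamine, xylazine and an analgesic. Isoflurane was given at each stimulation, so daily isoflurane and the current cannot be told apart here, and no library is labelled as sham. Neither the number of mice nor the side of the ganglia behind a library is given in the labels. The p-values therefore rest on the differences among these libraries, which may be technical.

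The trigeminal ganglion holds the cell bodies of the sensory neurons that innervate the cornea and face. Each body is wrapped by satellite glia, and the axons are sheathed by Schwann cells. Toward the brainstem the root passes into central nervous tissue, where oligodendrocytes make the myelin and astrocytes are present, and meningeal layers cover ganglion and root. Macrophages reside throughout. In such whole tissue, fewer cells of a type and less RNA per cell cannot be told apart.

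Counted reads per library, in units of 1e6, were 8.40 to 8.84 in stimulated injured mice, 8.40 to 10.75 in injured mice, 7.95 to 10.44 in stimulated uninjured mice and 8.40 to 8.93 in controls. No 2 libraries held identical values. Genes are named here by where their reads lay, because the deposited identifiers did not match the RNA counted under them, as set out in the processing notes. Levels are in CPM (TMM-scaled counts per 1e6 reads counted in the tested intervals). Each gene was read only through the exon bases under its interval, so levels are not compared between genes. The neuronal label of the tissue held, since Uchl1, a ubiquitin hydrolase abundant in neurons, stood between 1779 and 5535 CPM in every library.

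The stimulated injured libraries were less alike than those of the other groups. Over the log2 CPM of all tested intervals, replicate 2 had rank correlations of 0.965 to 0.972 with the 3 controls and 0.936 to 0.961 with its own 2 partners. Stimulated injured replicate 1 also had 0.936 to 0.961 with its own 2 partners. It correlated at 0.953 to 0.960 with the injured libraries and at 0.916 to 0.926 with the controls. Within each of the other groups, libraries correlated at 0.965 to 0.977. Because stimulated injured replicate 2 correlated best with the controls, the main counts below are also given without it. List counts are given that way where they differ.

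**Figure D1:**
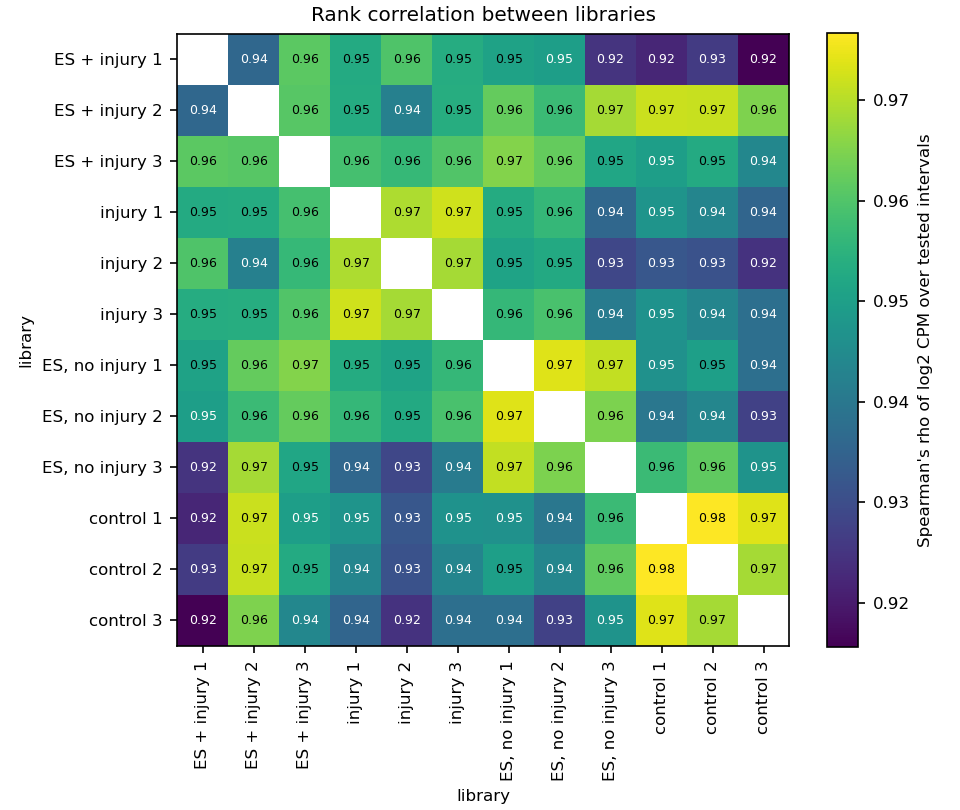
Rank correlation (Spearman's rho of log2 CPM over the tested intervals) between each pair of the 12 libraries, both axes listing libraries by group and replicate. Stimulated injured replicate 2 correlates at 0.965 to 0.972 with the controls, above its values of 0.936 to 0.961 with its own group.

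Ganglia of stimulated injured mice had lower levels of a limited set of genes than ganglia of injured mice, among them genes of the meninges, of myelin, of astrocytes and of macrophages, and few genes were higher. Of 13053 intervals tested by edgeR's quasi-likelihood test, 196 were lower (1.5%) and 5 were higher (0.0383%) at an adjusted p under 0.05. Of 4771 named genes, 98 were lower (2.05%) and 2 were higher (0.0419%). The 98 genes were all protein coding, and they had a median log2 fold change of −1.11 and a median standard error of 0.21. Apart from Trdn, which was at 0 in 2 of the stimulated injured libraries, the log2 fold changes ran from −0.60 to −2.41. In each of them the 3 stimulated injured libraries lay below the 3 injured ones, as they did in 548 of the 4771 named genes (11.5%). The reverse order was seen in 249 named genes (5.22%). Without stimulated injured replicate 2, 243 intervals were called, 212 lower and 31 higher. In that fit 99 of 4958 named genes were lower (2%) and 15 higher (0.303%), and 74 of the 98 kept their call. A fit without stimulated injured replicate 1 called 338 of 13708 intervals, 256 lower and 82 higher, and 86 of the 98 kept their call. Without stimulated injured replicate 3, only 2 of the 98, Slc6a13 and Gstm7, kept it. Without injured replicate 1, 2 or 3, the numbers that kept it were 25, 65 and 48, and without stimulated uninjured replicate 1, which enters through the shared estimate of spread, it was 63. All 98 kept their sign in each of the 12 fits that left out 1 library.

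**Figure D2:**
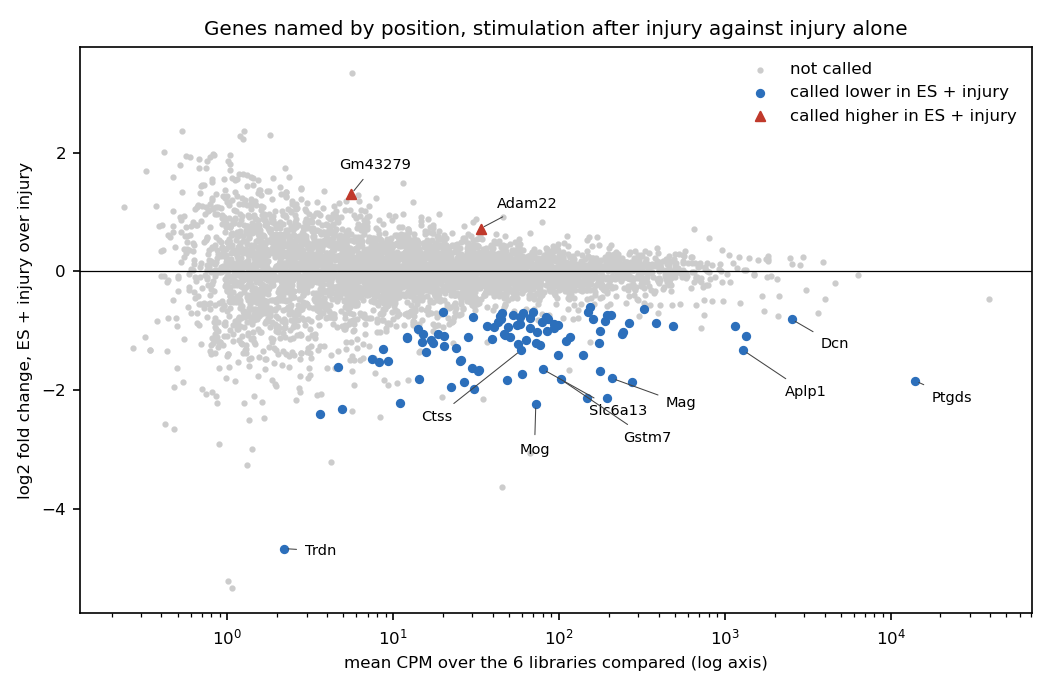
Log2 fold change of stimulated injured over injured ganglia (vertical axis) against mean CPM over the 6 libraries (horizontal, log axis) for 4771 named genes. The 98 genes called lower (blue) averaged from 4.245 CPM up to 21990 CPM (Ptgds) in injured libraries, and 2 genes were called higher (red triangles).

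Promoters are shown for one called gene each of the meninges (Ptgds), of myelin (Mag) and of macrophages (Ctss), because these groups supplied calls among the 30 with the smallest p. RefSeq promoters on GRCm38.p6, from 250 bases before to 50 after the start, were found for 73 of the 98 genes. Capitals mark matches on either strand to short motifs of factors known from these cells: TGANTCA (AP-1), ACAAAG (SOX) and GAGGAAG (PU.1).
Ptgds, chr2:25469700-25469999, minus strand: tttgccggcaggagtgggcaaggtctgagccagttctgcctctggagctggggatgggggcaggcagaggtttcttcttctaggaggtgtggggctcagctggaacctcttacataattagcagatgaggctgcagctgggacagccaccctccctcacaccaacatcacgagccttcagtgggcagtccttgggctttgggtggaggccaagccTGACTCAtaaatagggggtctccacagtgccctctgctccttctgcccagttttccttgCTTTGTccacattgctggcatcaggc
Mag, chr7:30914814-30915113, minus strand: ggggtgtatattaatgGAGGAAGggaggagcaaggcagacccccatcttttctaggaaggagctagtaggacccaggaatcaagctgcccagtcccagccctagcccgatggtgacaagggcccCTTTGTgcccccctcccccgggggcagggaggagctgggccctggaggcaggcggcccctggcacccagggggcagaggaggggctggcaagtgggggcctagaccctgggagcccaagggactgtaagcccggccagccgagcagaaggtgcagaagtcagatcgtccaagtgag
Ctss, chr3:95526536-95526835, plus strand: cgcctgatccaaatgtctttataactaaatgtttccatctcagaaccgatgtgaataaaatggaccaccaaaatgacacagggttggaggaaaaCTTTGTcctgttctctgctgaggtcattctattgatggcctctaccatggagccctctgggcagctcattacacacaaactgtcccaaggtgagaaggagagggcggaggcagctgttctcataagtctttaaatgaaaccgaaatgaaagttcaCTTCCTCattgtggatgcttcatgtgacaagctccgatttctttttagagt
The Ptgds window holds an AP-1 match at position −35 and a SOX match at 25. The Mag window holds PU.1 letters at −234 and SOX letters at −126, and the Ctss window holds SOX letters at −156 and PU.1 letters at −1. AP-1 letters were in 5 of the 73 windows (6.849%), beside 7.933% of all 27025 RefSeq windows. SOX letters were in 15 (20.548%, beside 18.705%), PU.1 letters in 12 (16.438%, beside 13.536%), and the forkhead letters TGTTTAC in 2 (2.74%, beside 3.549%). A match describes letters in these windows and is not a bound site.

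Genes of the meninges, the membranes around nervous tissue, called lower included transporters, a prostaglandin synthase and a transcription factor. Of 14 tested members of the meningeal list, 8 were lower, beside 2.05% of all named genes, and none higher. The list's median log2 fold change was −1.47, beside −0.01 over all named genes, and 6 members were called lower without stimulated injured replicate 2. In 13 of the 14 the stimulated injured libraries lay below every injured one, beside 11.5% of all named genes. The summed CPM of the list was 5810 to 7440 in stimulated injured libraries, 22900 to 23600 in injured ones, 3180 to 7820 in stimulated uninjured ones and 5690 to 5990 in controls. Most of that sum is Ptgds.

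Slc6a13, a transporter that takes up GABA and taurine at the meninges, lies on chromosome 6 at 121300227 to 121337733 (plus strand, GRCm38) and was read through 239 of its exon bases. It had 35.2, 46.2 and 34.0 CPM in stimulated injured libraries, against 124.7, 124.0 and 114.5 CPM in injured ones. The groups lay far apart, and stimulated injured replicate 2 was the highest of its group. It fell by 1.65 ± 0.17 on the log2 scale (adjusted p = 0.000256), the smallest p of all named genes. Stimulated uninjured libraries had 29.5 to 40.8 CPM and controls 32.6 to 41.8 CPM. Ptgds, the synthase of prostaglandin D2 and a secreted carrier protein of the meninges, was read over all of its 1649 exon bases. It had 6641, 6664 and 5058 CPM, against 22250, 21520 and 22180 CPM in injured libraries. The injured libraries were nearly level with each other. Its log2 fold change was −1.84 ± 0.30 (adjusted p = 0.00599), and the call was lost without stimulated injured replicate 2 or replicate 3.

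The other meningeal calls described here were transporters, a transcription factor and a proteoglycan. Slc6a20a, a proline transporter, averaged 9.12 ± 6.06 CPM in stimulated injured and 35.7 ± 9.37 CPM in injured libraries (SD, n = 3 each). Its stimulated injured values spread from 3.68 to 15.7 CPM, with replicate 2 highest. Slc22a8, an organic anion transporter, averaged 6.24 ± 4.37 and 22.2 ± 3.77 CPM in stimulated injured and injured libraries. Slc7a11, the cystine and glutamate exchanger, fell by 1.49 ± 0.29 on the log2 scale. Foxc1, a forkhead factor needed for meningeal development, had 13.6, 15.8 and 10.9 CPM, against 43.8, 36.0 and 34.0 CPM in injured libraries. Bgn, the matrix proteoglycan biglycan, fell by 0.86 ± 0.21 (adjusted p = 0.0483 by edgeR), close to the threshold. Slc13a4, a sulfate transporter, and Dpp4, a cell surface peptidase, had −1.45 ± 0.39 and −1.50 ± 0.41 and did not pass (adjusted p = 0.0757 and 0.0899 by edgeR). Cdh1, an epithelial adhesion protein, was the member whose groups overlapped (−0.19 ± 0.15).

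Secreted signals were among the 30 calls with the smallest p. Wnt4, a Wnt ligand, had 19.1, 14.3 and 14.3 CPM in stimulated injured libraries, against 52.1, 48.5 and 49.6 CPM in injured ones, and fell by 1.66 ± 0.22 (adjusted p = 0.00198 by edgeR). Both groups were tight, and stimulated uninjured libraries (11.02 to 20.7 CPM) and controls (11.7 to 16.3 CPM) overlapped the stimulated injured range. Of 18 tested genes of the Wnt, BMP, TGF-beta, Notch and hedgehog families, only Wnt4, Ltbp4 (−0.88 ± 0.16), which binds latent TGF-beta, and Smo (−0.60 ± 0.14), the hedgehog signal transducer, passed, and the list's median was −0.07. Among all named genes 2.05% were lower in the main fit. Without stimulated injured replicate 2 the list of these families gave 3 lower and 1 higher. Enpp2, also called autotaxin, makes lysophosphatidic acid and is abundant in oligodendrocytes and choroid plexus. It had 55.9, 119.1 and 78.0 CPM, against 314.3, 193.8 and 301.3 CPM in injured libraries (−1.68 ± 0.26, adjusted p = 0.00342 by edgeR), so replicate 2 of each group lay nearest to the other group. Colec12, a scavenger receptor of vascular and stromal cells, fell by 1.11 ± 0.16, and so did Flnc, the actin crosslinker filamin C. Olfml1, a secreted olfactomedin-like protein, had 46.1, 45.8 and 45.4 CPM, against 93.2, 84.7 and 88.6 CPM, the narrowest stimulated injured range of these genes.

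Myelin genes of both oligodendrocytes and Schwann cells were called lower in stimulated injured ganglia. Of 7 tested oligodendrocyte markers 5 were lower and none higher (median −1.87), and of 6 myelinating Schwann cell markers 4 were lower and none higher (median −0.99). The same numbers, 5 and 4, were lower without stimulated injured replicate 2. Among all named genes 2.05% were lower in the main fit. The difference between the lists was not tested. Summed oligodendrocyte markers came to 421 to 719 CPM in stimulated injured, 1020 to 1560 CPM in injured, 567 to 746 CPM in stimulated uninjured and 504 to 696 CPM in control libraries.

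Mog, a surface protein found on oligodendrocyte myelin and not on Schwann cell myelin, had 16.4, 40.0 and 19.5 CPM, against 149.1, 77.2 and 132.7 CPM in injured libraries. The groups did not overlap, although stimulated injured replicate 2 stood above both of its partners and injured replicate 2 below both of its own. Mog fell by 2.24 ± 0.33 (adjusted p = 0.00342 by edgeR). Gpr37, an orphan receptor of myelinating oligodendrocytes, had 81.4, 170.4 and 103.5 CPM, against 518.8, 278.9 and 506.4 CPM (−1.87 ± 0.31). Cldn11, the tight junction protein of central myelin and of the arachnoid, fell by 2.13 ± 0.34, and Enpp6, a choline phosphodiesterase of newly formed oligodendrocytes, by 2.22 ± 0.39. Gjc3, a connexin of myelinating glia, fell least (−0.64 ± 0.14). Aspa, which splits N-acetylaspartate, did not pass (−0.66 ± 0.25), and Plekhb1 overlapped between groups, with 74.0 CPM in stimulated injured replicate 2 and 16.6 and 27.4 CPM in its partners.

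Mag, an adhesion protein on the inner face of both kinds of myelin, had 78.7, 127.6 and 72.1 CPM in stimulated injured libraries, against 370.8, 236.3 and 365.7 CPM in injured ones (−1.80 ± 0.27, adjusted p = 0.00301 by edgeR). Cnp, a phosphodiesterase of uncompacted myelin, averaged 852.9 ± 279.6 and 1817 ± 109.4 CPM in stimulated injured and injured libraries (SD, n = 3 each). Mal, a membrane proteolipid, fell by 0.92 ± 0.15, and Fa2h, which hydroxylates myelin lipids, by 1.05 ± 0.18. Prx, a Schwann cell protein absent from central myelin, did not pass. It had 4096, 1767 and 2400 CPM in stimulated injured and 2750, 4817 and 2672 CPM in injured libraries, and the groups overlapped. Aplp1, a membrane protein related to the amyloid precursor and made by neurons and oligodendrocytes, had 841.2, 649.1 and 715.4 CPM, against 2056, 1377 and 2125 CPM (−1.33 ± 0.24, adjusted p = 0.00723 by edgeR). The call for Aplp1 was lost without injured replicate 1 or without stimulated injured replicate 2 or 3.

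**Figure D3:**
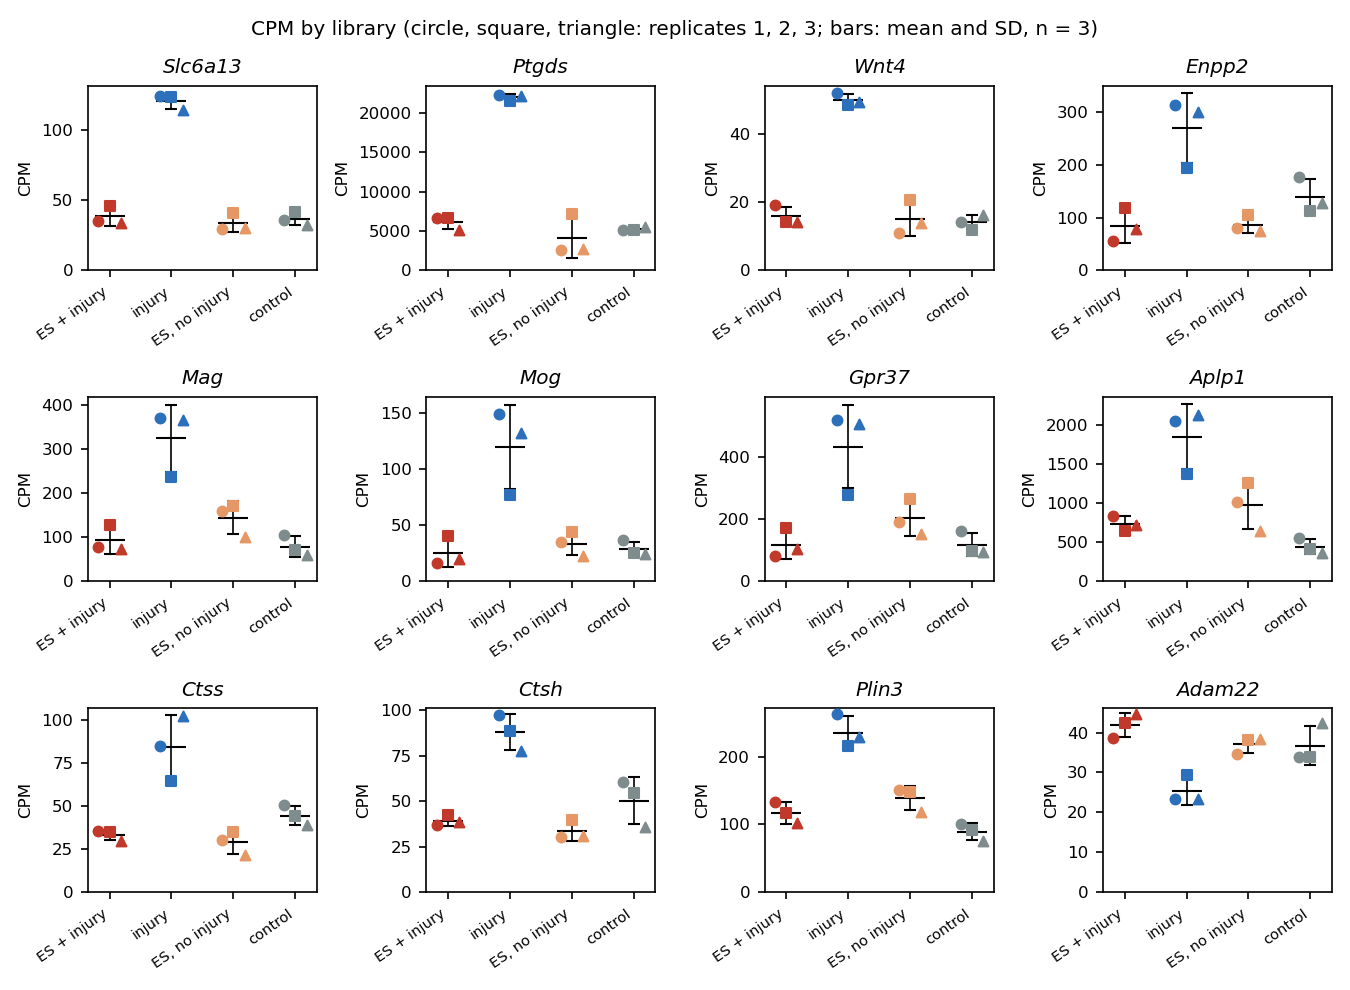
CPM of 12 genes in each library (circle, square and triangle for replicates 1, 2 and 3; bars are the mean and SD, n = 3), each panel from 0. For 11 genes the 3 injured libraries lie above the 3 stimulated injured ones, as for Slc6a13 at 114.5 to 124.7 CPM against 34.0 to 46.2 CPM, and for Adam22 they lie below.

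Astrocyte markers lay lower as well, with few passing. Of 9 tested members 2 were lower and none higher (3 lower without stimulated injured replicate 2), beside 2.05% of all named genes lower. The list's median was −1.63. In 8 members the stimulated injured libraries lay below every injured one, beside 11.5% of all named genes. Agt, the angiotensin precursor made by astrocytes, had 30.7, 31.0 and 21.97 CPM, against 104.0, 74.4 and 98.4 CPM in injured libraries (−1.73 ± 0.26, adjusted p = 0.00327 by edgeR). Slc14a1, a urea transporter, averaged 2.28 ± 0.39 CPM in stimulated injured and 7.00 ± 0.48 CPM in injured libraries (SD, n = 3 each) and fell by 1.61 ± 0.33. Aldh1l1, a folate enzyme widely used to mark astrocytes, had 5.45, 7.72 and 4.96 CPM, against 13.5, 10.1 and 12.8 CPM, and did not pass (−0.999 ± 0.29, adjusted p = 0.115 by edgeR). Summed astrocyte markers were 259 to 384 CPM in stimulated injured, 555 to 644 CPM in injured, 314 to 628 CPM in stimulated uninjured and 226 to 283 CPM in control libraries. Markers of satellite glia, the main glia of the ganglion itself, gave 1 lower of 8 and a median of −0.40. Kcnj10, the potassium channel that buffers potassium in satellite glia and astrocytes, had 99.3, 87.0 and 95.0 CPM, against 231.5, 161.7 and 251.2 CPM, and did not pass (−1.20 ± 0.30, adjusted p = 0.062 by edgeR). Cdh19, a cadherin of satellite and Schwann cells, gave 0.25 ± 0.24. None of 3 markers of nonmyelinating Schwann cells passed.

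Meninges, oligodendrocytes and astrocytes are found at the root and surface of the ganglion, but not every listed marker is particular to them. Gjc3, in the oligodendrocyte list, is a connexin of myelinating glia, and Bgn, in the meningeal list, is a matrix proteoglycan. How much root and surface tissue each library held, and its part in these differences, was not tested.

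Macrophage genes were lower in part, to be set beside 2.05% of all named genes called lower. Of 12 tested markers 4 were lower and none higher (3 lower without stimulated injured replicate 2), with a median of −0.48 and a summed level of 118 to 129 CPM in stimulated injured, 212 to 253 CPM in injured, 91.5 to 117 CPM in stimulated uninjured and 147 to 173 CPM in control libraries. Ctss, the lysosomal protease cathepsin S that trims antigens, had 35.4, 34.8 and 30.0 CPM, against 85.2, 65.0 and 102.7 CPM in injured libraries (−1.33 ± 0.19, adjusted p = 0.00289 by edgeR). The stimulated injured values were close together and the injured ones spread. Aif1, the microglial marker Iba1, fell by 1.10 ± 0.23, C1qc, a chain of complement C1q, by 0.93 ± 0.18, and Lyz2, lysozyme, by 0.70 ± 0.16. Ccr2, the receptor that draws monocytes to tissue, overlapped between groups (−0.73 ± 0.28), and Mrc1, the mannose receptor of resident macrophages, gave 0.78 ± 0.54. Beyond the list, Ptafr, the receptor of platelet-activating factor, Srgn, the granule proteoglycan serglycin, and Unc93b1, which carries Toll-like receptors to endosomes, fell by 1.52 ± 0.36, 0.68 ± 0.16 and 0.80 ± 0.18. They were chosen after their values were seen. Mcpt4, a mast cell protease, fell by 1.32 ± 0.32.

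Complement and innate immune genes lay lower with few calls. Over 12 tested members the median was −0.72, and in 7 the stimulated injured libraries lay below every injured one, beside 11.5% of all named genes. Of the 12 complement and innate genes C1qc and Serping1, the C1 inhibitor (−0.73 ± 0.18), were lower, beside 2.05% of all named genes. C4b, a complement component, had 57.9, 75.2 and 44.7 CPM, against 102.4, 101.1 and 90.5 CPM in injured libraries, and did not pass (−0.72 ± 0.20, adjusted p = 0.0902 by edgeR). None of 13 antigen presentation and interferon genes passed, with a median of −0.31. In 2 of the 13 the stimulated injured libraries lay below every injured one, near the 11.5% of all named genes.

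Lysosomal and lipid genes gave scattered calls. Ctsh, an aminopeptidase of lysosomes, had 36.8, 42.7 and 38.4 CPM, against 97.3, 88.7 and 77.6 CPM in injured libraries (−1.16 ± 0.18). With Ctss it was the whole count of lower genes among 15 lysosomal genes, whose median was −0.14. Among 23 lipid genes 6 were lower, 4 without stimulated injured replicate 2, and the median was −0.25. Beside both lists, 2.05% of all named genes were lower in the main fit. Plin3, a coat protein of lipid droplets, had 133.5, 116.1 and 101.6 CPM, against 262.2, 215.6 and 228.1 CPM (−1.01 ± 0.16, adjusted p = 0.0041 by edgeR). Cd36, a fatty acid receptor, and Pltp, a phospholipid transfer protein, fell by 1.51 ± 0.30 and 1.17 ± 0.24. Gal3st1, which makes sulfatide, and Cers2, which makes long-chain ceramides, fell by 0.73 ± 0.16 and 0.69 ± 0.15. None of 5 cholesterol synthesis genes passed. Gstm7, a glutathione transferase, had 47.3, 43.5 and 44.9 CPM, against 177.0, 118.4 and 185.4 CPM (−1.82 ± 0.21, adjusted p = 0.000501 by edgeR). It and Gstm2 (−0.95 ± 0.20) have near-identical relatives, so how reads were shared among Gstm genes is uncertain.

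Matrix and fibroblast genes gave a few calls each. Of 36 collagens, laminins and other matrix genes 3 were lower (2 without stimulated injured replicate 2), with a median of −0.24. Of 14 fibroblast markers 4 were lower (3 without stimulated injured replicate 2), with a median of −0.49. Among all named genes 2.05% were lower. Gsn, the actin-severing protein gelsolin, had 366.2, 317.3 and 324.5 CPM, against 643.0, 608.7 and 655.6 CPM in injured libraries (−0.92 ± 0.14, adjusted p = 0.00324 by edgeR). Dcn, the collagen-binding proteoglycan decorin, averaged 1840 ± 111.5 and 3224 ± 306.9 CPM in stimulated injured and injured libraries, and Fn1, fibronectin, 53.8 ± 19.0 and 143.4 ± 31.2 CPM (SD, n = 3 each). Col1a2, a chain of collagen I, did not overlap and did not pass (−0.66 ± 0.17, adjusted p = 0.069 by edgeR). Enzymes that process collagen were called, namely Adamts2 (−1.11 ± 0.21), Bmp1 (−0.78 ± 0.16) and the enhancer protein Pcolce (−0.83 ± 0.18). Bmp1 and Pcolce were chosen after their values were seen.

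Other named calls were spread over cell functions. Gng11, a G protein gamma subunit, fell by 1.41 ± 0.23, Litaf, an endosomal membrane protein, by 1.01 ± 0.16, and Trp53inp2, which promotes autophagy, by 1.21 ± 0.20. Adssl1, a purine synthesis enzyme best known in muscle, had 21.04, 28.4 and 14.2 CPM, against 85.2, 58.6 and 82.3 CPM. Myof, a membrane repair protein, fell by 1.36 ± 0.23, Itgb4, the laminin-binding integrin beta 4 of Schwann cells and perineurium, by 1.07 ± 0.18, and Zcchc24, a zinc finger gene, by 0.87 ± 0.15. Of 31 axon guidance genes Unc5b, a netrin receptor (−1.99 ± 0.38), and Efnb3, an ephrin of oligodendrocytes and midline cells (−2.14 ± 0.45), were lower (3 without stimulated injured replicate 2), and the median was 0.06. Of 29 transcription factors Foxc1, Foxp2 and Nfix were lower, 1 of the list without stimulated injured replicate 2. Beside both lists, 2.05% of all named genes were lower in the main fit.

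Muscle RNA varied between libraries of the same group, most widely among controls. Summed skeletal muscle markers were 27.8 to 102 CPM in stimulated injured, 222 to 462 CPM in injured, 76.7 to 88.3 CPM in stimulated uninjured and 30.3 to 768 CPM in control libraries. None of 9 markers passed although their median was −2.08. In 8 of them the stimulated injured libraries lay below every injured one, beside 11.5% of all named genes. Ckm, muscle creatine kinase, had 0.51, 18.4 and 0.95 CPM, against 42.3, 119 and 92.0 CPM in injured libraries, and controls spread from 1.36 to 176 CPM. Trdn, a calcium release protein of muscle, was called lower with 0, 0.43 and 0 CPM, against 2.44, 6.27 and 4.03 CPM. Its fold change rests on libraries at 0 and is not quoted as a size. Slc2a4, the glucose transporter of muscle and fat, was also called (1.27, 2.25 and 1.30 CPM, against 6.43, 7.65 and 10.6 CPM). The part of adjacent muscle in these values was not tested. None of 12 endothelial markers (median −0.37) or 7 mural cell markers (median −0.24) passed.

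Mitochondrially encoded RNAs lay lower in stimulated injured libraries, and 1 of 5 passed, beside 2.05% of all named genes called lower. mt-Nd3, a complex I subunit, had 58.1, 51.4 and 36.2 CPM, against 90.4, 103.6 and 102.3 CPM in injured libraries (−1.02 ± 0.23, adjusted p = 0.028 by edgeR). It did not pass without stimulated injured replicate 2. In all 5 the stimulated injured libraries lay below every injured one, beside 11.5% of all named genes, and the list's median was −0.75. Without injury all 5 were also called lower in stimulated libraries than in controls, beside 13.8% of all named genes. The list's summed CPM was 32400 to 43500 in stimulated injured and 51200 to 57700 in injured libraries. It was 18700 to 30900 in stimulated uninjured and 46000 to 59200 in control libraries. Of 15 nuclear genes of the respiratory chain none passed, and their median was −0.01.

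Neuronal genes showed no call in their marker lists. None of 5 sensory neuron, 8 nociceptor or 7 mechanoreceptor and proprioceptor markers passed, and their medians were 0.26, 0.21 and 0.40. Without stimulated injured replicate 2, 1 sensory neuron marker was called higher. Avil, the actin regulator advillin of sensory neurons, had 1155, 1024 and 1322 CPM, against 927.0, 991.4 and 980.9 CPM in injured libraries (0.27 ± 0.15). Scn10a, the sodium channel of nociceptors, had 216, 200 and 261 CPM, against 195, 185 and 193 CPM (0.24 ± 0.17). Calb1, a calcium buffer, gave 0.40 ± 0.18, and Nefm, a neurofilament subunit, 0.37 ± 0.17. For Uchl1, replicate 2 was the low library of its group, with 2357 CPM beside 5535 and 4408 CPM, against 3203 to 4085 CPM in injured libraries.

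Channel and activity genes did not pass either. Among 39 voltage-gated and ligand-gated channel genes the median was 0.24 and no member passed. Hcn2, a pacemaker channel subunit, came closest and was lower (86.6, 83.2 and 98.3 CPM, against 133.7, 119.4 and 162.6 CPM, −0.63 ± 0.16, adjusted p = 0.056 by edgeR). Of the calcium-activated potassium channel genes named in the title of the study, Kcnn4 had 13.8, 5.79 and 10.3 CPM in stimulated injured and 7.65, 7.86 and 6.39 CPM in injured libraries (0.44 ± 0.31, adjusted p = 0.64 by edgeR). Kcnn3 reached 1.55 CPM at most in these 6 libraries (0.18 ± 0.96), and Kcnn1 and Kcnn2 were not analysed here. Of 11 immediate early genes none passed, with Fos at 0.65 ± 0.26, Ier2 at 0.63 ± 0.22 and Arc at −1.02 ± 0.32. Hgf, a growth factor for nerve and epithelium, had 6.97, 7.61 and 6.97 CPM, against 3.22, 1.81 and 4.58 CPM, and did not pass (1.18 ± 0.39, adjusted p = 0.18 by edgeR), like the other 15 neurotrophic genes. Of 5 axon injury genes none passed.

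Both named genes called higher lay above every injured library. Adam22, a receptor for LGI proteins at axons and synapses that lacks protease activity, had 38.5, 42.5 and 44.7 CPM in stimulated injured libraries, against 23.3, 29.4 and 23.5 CPM in injured ones (0.72 ± 0.15, adjusted p = 0.024 by edgeR). Stimulated uninjured libraries had 34.7 to 38.5 CPM and controls 33.9 to 42.4 CPM. The Adam22 call was lost without injured replicate 1 or 3, without stimulated injured replicate 3, and in the fit of only the groups compared (adjusted p = 0.0639 by edgeR). The other is a predicted gene, Gm43279, which was called in 3 of the 12 fits that left out 1 library and not with the replicate block (adjusted p = 0.098 by edgeR). The 10 next genes, none of which passed, were led by Cnr1, the cannabinoid receptor of neurons, with 155, 201 and 188 CPM, against 115, 107 and 142 CPM (0.58 ± 0.15, adjusted p = 0.073 by edgeR). They included Nfkbiz, an inducible NF-kappaB regulator (1.18 ± 0.32), Onecut2, a neuronal transcription factor (0.52 ± 0.15), Pcsk2, which cleaves prohormones (0.49 ± 0.14), Camk1d, a calcium-activated kinase (0.94 ± 0.28), and Cacna2d3, a calcium channel subunit (0.64 ± 0.19). Nepro, Zfp458, Slc18a2 and Pgap2 completed them.

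**Figure D4:**
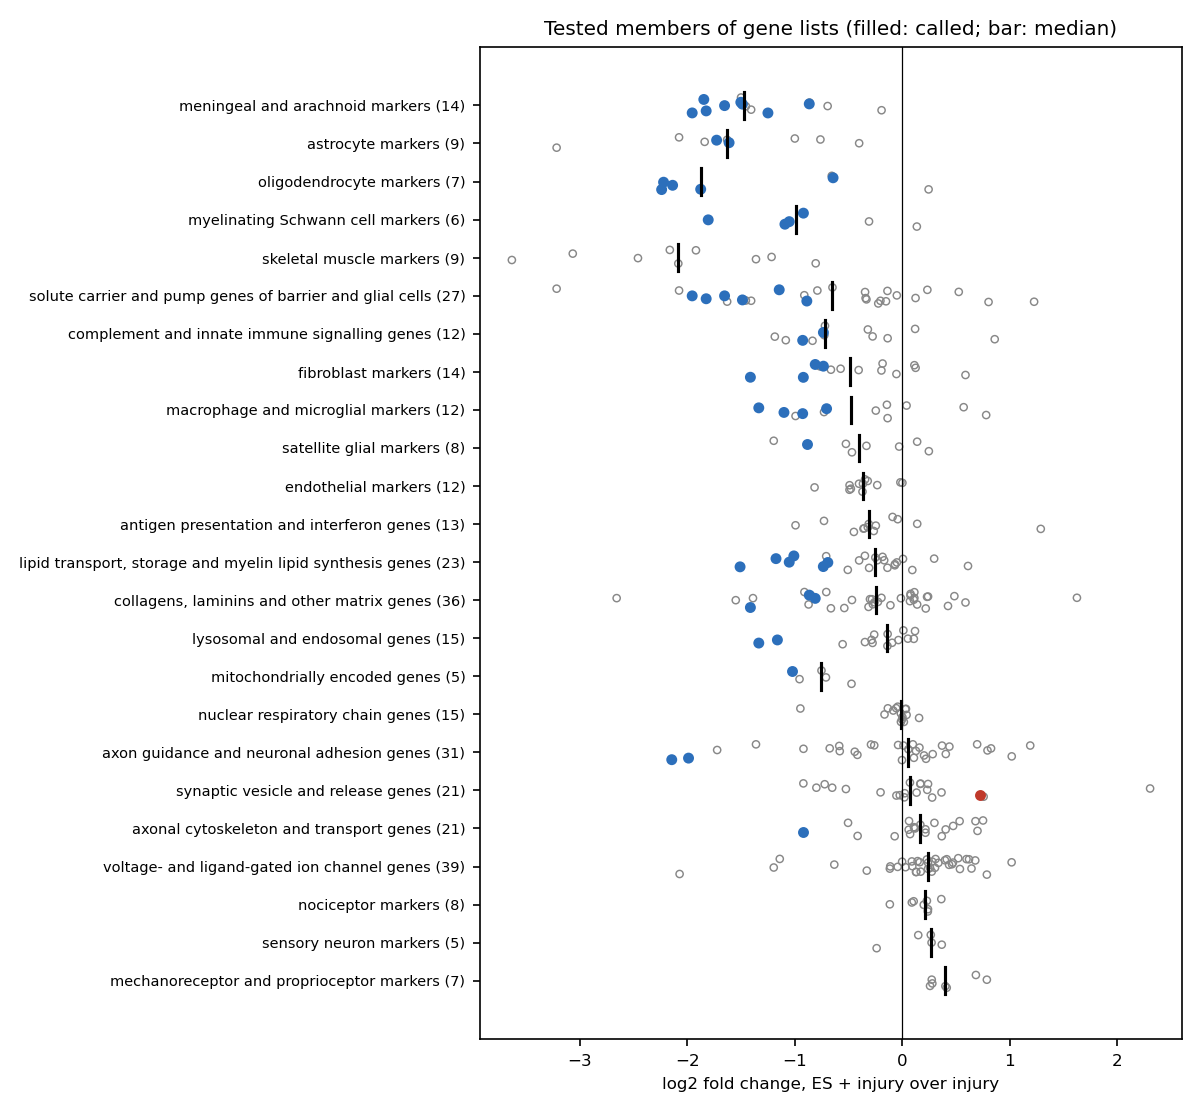
Log2 fold change of stimulated injured over injured ganglia for each tested member of 24 gene lists, with the number tested in parentheses, filled points for called genes and a bar at the median. Meningeal, astrocyte, oligodendrocyte and muscle lists have medians of −1.47, −1.63, −1.87 and −2.08, and the sensory neuron, nociceptor and mechanoreceptor lists have medians of 0.26, 0.21 and 0.40.

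The same current in uninjured mice gave another pattern in these 98 genes. Against controls, with which the injured comparison shares no library, 21 of the 98 were lower and 19 higher, beside 13.8% lower and 18.5% higher among all named genes, and 58 did not pass. That is 21.4% and 19.4% of the 98, and their median log2 fold change was 0.04. Agt had −1.73 in injured and 1.13 in uninjured mice, Mag −1.80 and 0.87, and Pltp −1.17 and 1.63. Colec12 had −1.11 and −1.37, Dcn −0.81 and −1.77, and Cd36 −1.51 and −1.98. The interaction, which tests the difference between the effects and shares the 6 libraries that chose the genes, passed in 62 of the 98, beside 20.4% of named genes. Of those that did not pass it, Colec12 gave 0.26 and Ctss −0.71 (adjusted p = 0.46 and 0.0756 by edgeR). Over all intervals the interaction called 1611 negative and 896 positive, and 1173 and 1079 with relative log expression factors in the same test. Without stimulated injured replicate 2 it called 1080 negative and 1027 positive. With the trend on GC content and length removed it called 339 negative and 348 positive.

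**Figure D5:**
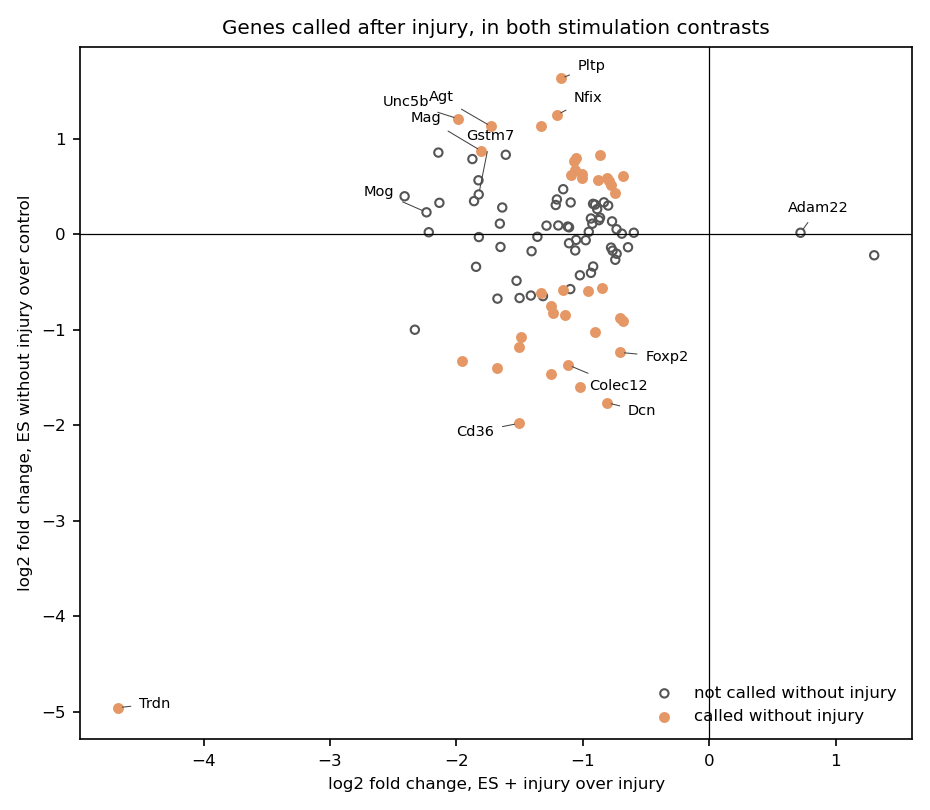
Log2 fold change of stimulation after injury (horizontal) against that of stimulation without injury (vertical) for the 98 genes called lower and 2 called higher after injury. Filled points were also called without injury, 21 lower and 19 higher among the 98.

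Levels in stimulated injured ganglia were also set beside untreated controls, a comparison that shares the stimulated injured libraries. Of the 98 genes, 84 did not pass it, 4 were higher and 10 lower. The 4 were Fa2h (0.85), Aplp1 (0.73), Adi1 (0.52), an enzyme that recycles methionine, and Pltp (0.94). The 10 were Olfml1 (−0.53), Colec12 (−0.68), Cd36 (−1.65), Dcn (−0.68), Sypl (−0.80), Lyz2 (−0.51), Slc2a4 (−1.81), Foxp2 (−0.57), mt-Nd3 (−1.05) and Trdn. A p that misses the threshold does not show that the other levels equal those of controls. Of the 98 genes, 24 were called in 6 or fewer of the 12 fits that each left out a library.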

How the data were processed

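Poly(A)-enriched RNA of trigeminal ganglia was sequenced as paired reads. The deposited values are whole-number counts that the authors made with featureCounts 2.0.6, per the file headers, unstranded, with reads allowed in several overlapping genes and single reads counted, in Ensembl 110 intervals. The submitters' processing notes name FastQC, Salmon 1.10.2 and DESeq2 instead. Version and build of the aligner: not given in the sources used here.

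The counts follow GRCm38 exons. With the mitochondrial genome left out, intervals over these exons held 98.63% to 99.3% of counts per library, against 51.93% to 57.17% after a shift of 1000000 bp. An interval was therefore named for a gene where it lay over at least 100 bp of exons of exactly 1 GENCODE M21 gene. Of 56941 intervals, 9968 gave a gene a name and 4771 of these were tested.

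All 12 libraries entered 1 fit of edgeR 4.0.16 (robust quasi-likelihood, TMM scaling, filterByExpr, Benjamini-Hochberg adjustment over 13053 intervals, calls at an adjusted p under 0.05), with 8 residual degrees of freedom. The error printed with a log2 fold change is its standard error. Alternatives used DESeq2 1.42.0 and limma 3.58.1, in R 4.3.3, with Python 3.11.15 and bedtools 2.31.1 for overlaps.

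Named are Kcnn genes, called higher genes, the 30 called lower with the smallest p and at least 1 CPM on average, the 10 next higher ones, and up to 6 members per list. Slc13a4, Dpp4, Cdh1, Plekhb1, Mrc1, Gstm2, Trdn, Adi1 and Sypl were added after their values were seen. Some genes that the rule picks are left out of the text. Members and lists were chosen with earlier results of these data known. The planned design had taken the counts for Salmon estimates.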

Additional observations from a re-analysis of the deposited data

Results flagged for a closer look

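Of the 44 genes picked by the naming rule, 30 differed between injured and uninjured mice in the effect of stimulation, 23 negative and 7 positive, by the interaction term of edgeR's quasi-likelihood test (log2 fold change after injury minus that without injury, adjusted over all intervals). Among all named genes, 20.4% passed the interaction. The 44 genes, apart from the Kcnn genes, had been chosen on the contrast after injury, which the interaction shares. These values therefore describe the difference and are not independent evidence of it. Among meningeal and secreted-signal genes the differences were −1.52 for Slc6a13 (adjusted p = 0.0014), −1.5 for Ptgds (0.021), −1.77 for Wnt4 (0.0024) and −2.85 for Agt (0.00085). Among myelin genes they were −2.67 for Mag (adjusted p = 0.00087), −2.46 for Mog (0.0035), −2.66 for Gpr37 (0.0018), −2.46 for Cldn11 (0.0045), −2.24 for Enpp6 (0.011), −1.85 for Fa2h (0.00087), −1.71 for Cnp (0.0016) and −2.46 for Aplp1 (0.00086).

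Of the other negative differences, the larger were −2.24 for Gstm7 (adjusted p = 0.00085), −1.64 for Plin3 (0.00085), −1.6 for Litaf (0.00088), −2.39 for Adssl1 (0.0027), −1.57 for Trp53inp2 (0.0029) and −1.84 for Itgb4 (0.00087). Those nearest to 0 were −1.01 for Flnc (adjusted p = 0.0074), −1.02 for Zcchc24 (0.0059), −1.23 for Gng11 (0.015), −1.24 for Gsn (0.0015) and −1.33 for Myof (0.012). Positive differences were 0.707 for Adam22 (adjusted p = 0.032) and 1.52 for Gm43279 (0.025). Among genes that did not pass after injury they were 0.827 for Cnr1 (adjusted p = 0.016), 1.38 for Nepro (0.016), 0.624 for Onecut2 (0.042), 1.84 for Zfp458 (0.013) and 3.38 for Pgap2 (0.022). Isoflurane accompanied the current in both stimulated groups, and its part in these differences was not tested.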

How the results depend on the processing

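Stimulation after injury called 201 intervals, 196 lower and 5 higher. Of the settings tried, no filter by group gave 364 (310 lower, 54 higher), DESeq2 334 (53 higher), voom with quality weights 1044 (807 lower, 237 higher), a fit of only the groups compared 127 (127 lower, 0 higher) and the GC content and length trend removed 10 higher. The replicate block gave 1 higher, and together with removal of that trend 87 (86 lower, 1 higher). Leaving out 1 library at a time gave 5 to 338 calls, 4 to 256 lower and 0 to 82 higher, with the fewest without stimulated injured replicate 3. By name, 100 genes were called, and 180 without the filter, 160 with DESeq2, 443 with voom, 50 with the block and the trend removed, and 2 to 155 with 1 library left out. At an unadjusted p under 0.05, 1019 of the 13053 tested intervals, named or not, were lower and 578 higher.

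Stimulation without injury called 3896 intervals, 2006 with the GC and length trend removed, 1467 with the block as well, and 2640 to 4593 with 1 library left out. The interaction called 2507, with 687 and 417 under those 2 settings, 4411 with voom, and 1126 to 3407 with 1 library left out. The cause of these shifts was not tested. Kcnn3 changed sign without injured replicate 2 (−0.419) and without stimulated injured replicate 3 (−0.34), within −0.419 to 1.35 over all settings. Of the 98 genes called lower by name, each kept its sign under every setting.

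The numbers do not pair the libraries: deviations of same-numbered stimulated injured and injured libraries correlated at −0.121, −0.204 and 0.037, and 1 of the 3 matched its own number best. With the replicate block 157 intervals and 82 of the 98 genes were called. With 3 libraries a group, and only part of the exons read in all but 6 of the 98 genes, genes of low count are measured imprecisely.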
